A study of Rattus norvegicus with 8 samples.

Results

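miR-221 and miR-222 are a pair of miRNAs that are cut from neighbouring hairpins on the X chromosome. Their rows were chosen from the deposited count table by name alone, as every row whose name after rno- is mir-221 or mir-222 in any letter case and with any arm suffix. The rule found 5 of the 620 rows, namely rno-miR-221, rno-miR-222, rno-miR-221*, rno-miR-222* and a separate row spelled rno-mir-221*. In this naming the asterisk marks the arm of the hairpin that was taken to be the minor product when the miRNA was named. The table holds 61 rows in lower case, all of them with an asterisk, and 33 of these have a twin in the usual spelling. The sequence that the lower-case row counts is not given in the sources used here, and it was kept apart from rno-miR-221*.

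Kidneys came from 8 male Big Blue transgenic rats on the Fisher 344 background, which bear a transgene for measuring mutations. The labels give an age of 6 weeks, which cannot be the age at death after the 12 weeks of dosing. Rats of the AA group (n = 4) were given aristolochic acid, a plant carcinogen that damages the kidney (a mixture of AAI and AAII), as its sodium salt at 10 mg/kg by gavage in 4 ml/kg, 5 times a week for 12 weeks. Control rats (n = 4) were given 0.9% sodium chloride on that schedule, and all animals were killed 1 day after the last dose. One label field names the tissue as liver, whereas the paper names kidney. The liver miRNA miR-122 summed with its opposite arm was at 4.34 to 54.7 CPM in the control libraries and 0.696 to 539 in the AA libraries. The high end came from the AA library 2, with miR-122 alone at 523 CPM against 0.696, 2.96 and 1.18 in AA 1, 3 and 4. The cause was not tested. The 7 miRNAs of the renal epithelium list summed to 111456 to 213251 CPM, mostly from miR-30a and miR-192. No liver sample was measured here for comparison. Each library came from a whole piece of kidney, so that more cells of a type and more of a miRNA per cell cannot be told apart.

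As background, the main arms of miR-221 and miR-222 begin with the same bases and therefore share a seed, the stretch that a miRNA uses to pair with its target messengers. They are best known for lowering the cell cycle inhibitors p27 (Cdkn1b) and p57 (Cdkn1c), and for their expression in endothelium, vascular smooth muscle and blood cells. They are counted among the growth-promoting miRNAs because they are raised in many tumours.

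The 4 mature sequences are shown because the seeds separate the arms into groups. They are from RefSeq (rat assembly GRCr8, plus strand), written 5′ to 3′ with the seed (bases 2 to 8) in capitals, and RefSeq names the main arms -3p and the arms with an asterisk -5p.
rno-miR-221-3p: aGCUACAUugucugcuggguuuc
rno-miR-222-3p: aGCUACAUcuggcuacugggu
rno-miR-221-5p: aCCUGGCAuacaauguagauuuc
rno-miR-222-5p: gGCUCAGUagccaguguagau

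The main arms were identical over their first 8 bases, and none of the other mature sequences among the 724 RefSeq entries had their seed. In an ungapped comparison over 21 bases they were the same at 11 positions, and the 10 substitutions all lay downstream of the seed, the first being C9U, with the base of miR-222 written first and positions counted from 1 at its 5′ end. The opposite arms shared neither a seed with each other nor with any other RefSeq miRNA. miR-221-3p is 23 nt long and miR-222-3p 21 nt, and the libraries were made from a gel slice that was cut for RNA of 22 to 30 nt. Whether this cut affected their levels was not tested.

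The hairpins lie in the same orientation on the X chromosome, Mir222 at chrX:6022621-6022723 and Mir221 at chrX:6023182-6023290 (GRCr8, plus strand). They are 458 bases apart with no gene annotated between them, and both lie within the spans of the long non-coding RNA genes LOC120099382 and LOC120099384. The hairpins are printed with both mature arms in capitals, to show that each pair of rows comes from 1 precursor.
Mir222: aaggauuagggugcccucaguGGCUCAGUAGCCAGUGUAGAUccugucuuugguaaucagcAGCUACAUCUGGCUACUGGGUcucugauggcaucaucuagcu
Mir221: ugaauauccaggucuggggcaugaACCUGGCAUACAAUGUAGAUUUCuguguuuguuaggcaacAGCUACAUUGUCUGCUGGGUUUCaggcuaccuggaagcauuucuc

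The depth was 13412373 to 15616670 reads per library on known rat miRNAs. The paper gives fewer reads mapped to known rat miRNAs for all samples together than each of these libraries holds. The reason for this difference is not given in the sources used here. Levels are given as reads and as CPM, which are reads scaled to a common library size with TMM factors. A read is a whole small RNA, so that levels of different miRNAs were not divided by length. Of the 5 rows, 3 passed the filter of at least 10 reads in at least 4 libraries, and rno-miR-222* and rno-mir-221* did not.

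Both main arms were higher in the kidneys of the AA group. rno-miR-221 rose 1.83-fold and rno-miR-222 1.75-fold in mean CPM, and both passed the test across all miRNAs. The opposite arm rno-miR-221*, which has more reads than the main arm, did not pass. Hence 2 of the 3 rows tested were called, both of them higher, where 16.3% of all 367 miRNAs tested were called, 10.4% higher and 5.99% lower.

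rno-miR-221 had 923, 670, 982 and 508 reads in the control libraries 1 to 4, and 1113, 1705, 1539 and 2022 in the AA libraries 1 to 4. In CPM, the control libraries were at 69.2, 49.3, 60.9 and 41.4 and the AA libraries at 86.0, 92.5, 106 and 120. Every AA rat therefore lay above every control rat, and the libraries numbered 4 were the lowest of the controls and the highest of the treated rats. The group means were 55.2 ± 12.3 and 101 ± 14.97 CPM (SD, n = 4 each). On the log2 scale the fold change was 0.87 with a standard error of 0.22 and a 95% interval of 0.39 to 1.36 (edgeR, adjusted p = 0.0214).

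rno-miR-222, which targets through the same seed, had 336, 251, 365 and 217 reads in the control libraries and 464, 633, 487 and 726 in the AA libraries. These are 25.2, 18.5, 22.6 and 17.7 CPM for control and 35.9, 34.3, 33.5 and 43.0 CPM for AA rats. The groups did not overlap, and the third AA library was the lowest of its group, above the first control library as the highest of the controls. The means were 21.0 ± 3.55 and 36.7 ± 4.33 CPM (SD, n = 4 each). The difference on the log2 scale was 0.80 with a standard error of 0.20 and a 95% interval of 0.37 to 1.24 (edgeR, adjusted p = 0.0195).

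**Figure D1:**
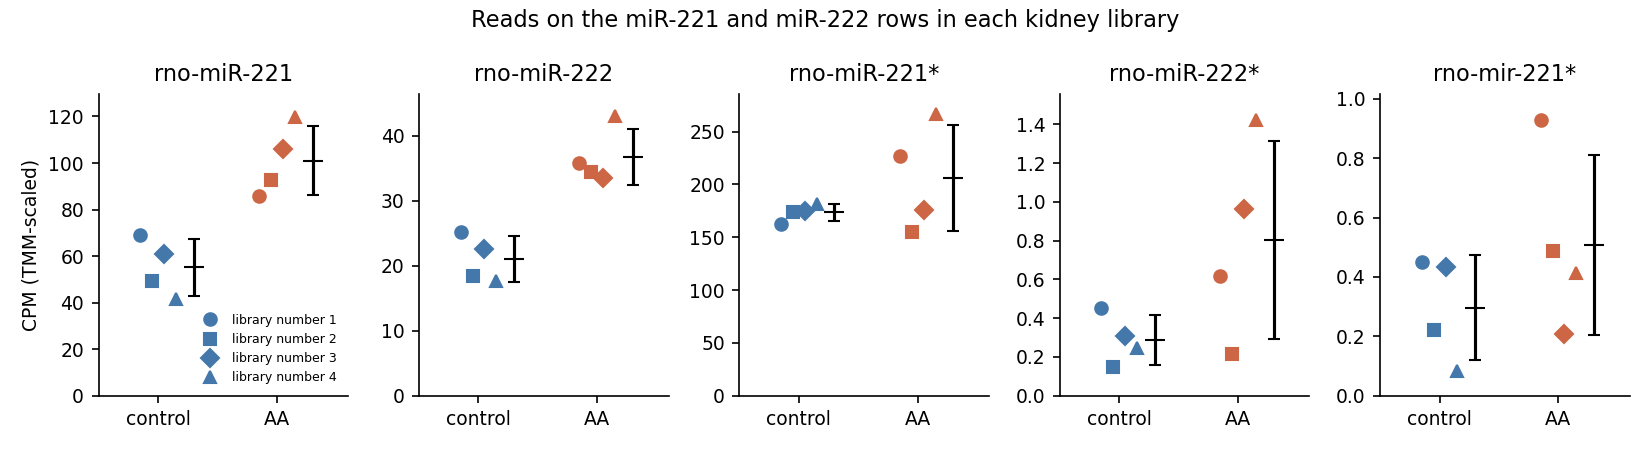
CPM (vertical axis, linear from 0, own scale in each panel) of the 5 rows in the 4 control and 4 AA libraries, with the library number as the symbol and the mean ± SD in black. The AA libraries lie above all control libraries for rno-miR-221 and rno-miR-222, while the groups overlap for the 3 rows with an asterisk.

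The absence of overlap was seen in 24.3% of all miRNAs tested, and with the AA group higher in 14.4%. Among the 38 miRNAs called higher, rno-miR-221 ranked 33 and rno-miR-222 ranked 34 by the size of the rise, so that the rises were modest beside those of other called miRNAs. Both were above the median log2 fold change of all tested miRNAs, which was 0.06. With total counts in place of TMM scaling this median moved to 0.27, and relative to it the log2 fold change was 0.80 for rno-miR-221 and 0.73 for rno-miR-222, against 0.81 and 0.74 relative to the median under TMM.
The calls were close to the threshold. Without the second control library the adjusted p (edgeR) was 0.0727 for both main arms, and for rno-miR-222 it was also 0.0529 without the third control library and 0.0563 without the first AA library, while the log2 fold changes remained between 0.69 and 1.00 for rno-miR-221 and between 0.62 and 0.90 for rno-miR-222 with any 1 library left out.

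**Figure D2:**
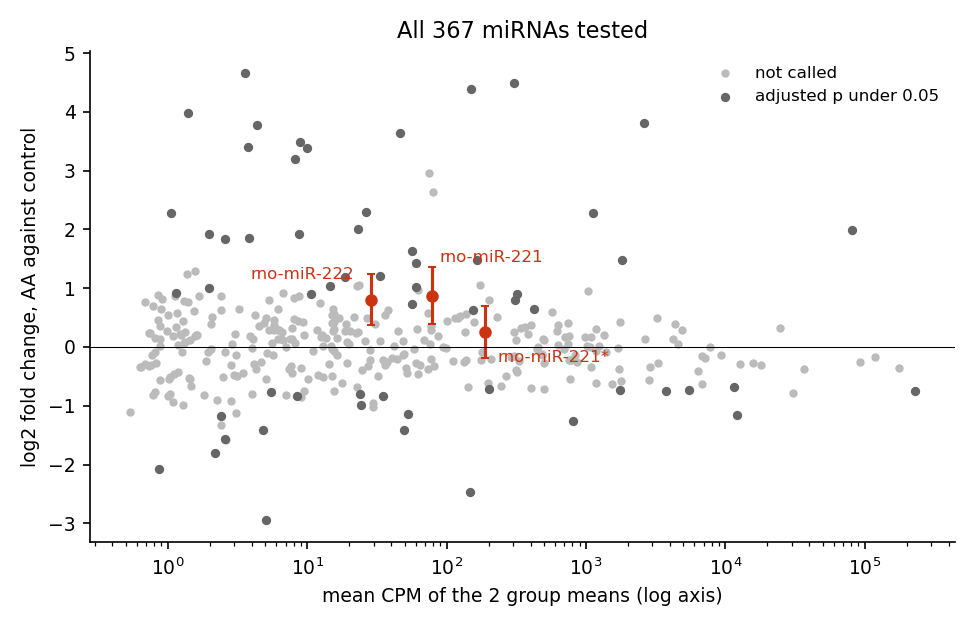
Log2 fold change of AA against control (vertical axis) by mean CPM (horizontal axis, log scale) for the 367 miRNAs tested, with called miRNAs in dark grey. The 3 tested rows of the pair are in red with 95% intervals, at 0.87 for rno-miR-221, 0.80 for rno-miR-222 and 0.25 for rno-miR-221*.

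The reads on the shared seed can be given as the sum of both main arms. They made up 0.00826%, 0.00628%, 0.00868% and 0.00528% of the reads in the control libraries, and 0.0118%, 0.0154%, 0.0147% and 0.0176% in the AA libraries. The 95% Wilson interval was 0.00491% to 0.00568% in the lowest library (control 4) and 0.0170% to 0.0183% in the highest (AA 4). The mean share was 2.09 times as high in the AA group, without overlap between the groups. The exact permutation test (two-sided) gave p = 0.0286, the smallest that 4 against 4 rats allow, and p = 0.114 after Benjamini-Hochberg adjustment over the 4 single-value tests made here.

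Whether the pair changed by different amounts was tested on the ratio of rno-miR-221 to rno-miR-222 reads within a library, which does not depend on scaling. The ratio was 2.74, 2.67, 2.69 and 2.34 in the 4 control libraries and 2.40, 2.69, 3.16 and 2.78 in the AA libraries. rno-miR-221 was the more abundant in all 8 libraries, and the groups overlapped. The mean log2 ratio was 1.38 ± 0.11 for control and 1.46 ± 0.16 for AA rats (SD, n = 4 each), a difference of 0.08 that was smaller than the spread between rats (exact permutation test, two-sided, p = 0.343, adjusted p = 0.457). A difference between the changes of the main arms was thus not detected with 4 rats per group.

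The opposite arm of miR-221 was the most abundant of the 5 rows. rno-miR-221* had 2168, 2368, 2827 and 2231 reads in the control libraries and 2931, 2855, 2554 and 4506 in the AA libraries. In CPM the control libraries lay close together at 163, 174, 175 and 182, whereas the AA libraries were at 227, 155, 176 and 267. The AA libraries 1 and 4 were above all controls, AA 2 was below them and AA 3 lay among them. The means were 173 ± 7.98 and 206 ± 50.5 CPM (SD, n = 4 each), and AA differed from control by 0.25 on the log2 scale, with a standard error of 0.20 and a 95% interval of -0.19 to 0.69 (edgeR, adjusted p = 0.409). Its sign depended on the AA library 4, without which it was -0.02.

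Within a library, rno-miR-221* had 2.35, 3.53, 2.88 and 4.39 reads for each read of rno-miR-221 in controls, and 2.63, 1.67, 1.66 and 2.23 in the AA group. The arm with the asterisk was therefore the higher one in all 8 libraries. The mean log2 ratio of the main arm to the opposite arm was -1.68 ± 0.39 for control and -1.01 ± 0.33 for AA rats (SD, n = 4 each), a difference of 0.67. The groups overlapped, because the first AA library lay below the first control library, and the test did not pass (exact permutation test, two-sided, p = 0.0571, adjusted p = 0.114). The call of the main arm and the lack of one for the opposite arm therefore do not show that the arms responded differently.

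miR-222 had the reverse balance of its arms. rno-miR-222* had 6, 2, 5 and 3 reads in the control libraries and 8, 4, 14 and 24 in the AA libraries. These counts are so low that only the AA libraries 3 and 4 exceeded 10 reads. Without a filter on reads, AA differed from control by 1.44 on the log2 scale with a standard error of 0.57 (edgeR, adjusted p = 0.147), in a fit that called 8.71% of 620 miRNAs. The main arm had 51.8, 101, 66.5 and 62.1 times the reads of the opposite arm in controls and 54.6, 141, 33.6 and 29.7 times in the AA group, after 0.5 was added to each count. The mean log2 ratio was 6.09 ± 0.40 and 5.72 ± 1.02 (SD, n = 4 each), with overlap between the groups (exact permutation test, two-sided, p = 0.571, adjusted p = 0.571).

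The lower-case row rno-mir-221* had 6, 3, 7 and 1 reads in the control libraries and 12, 9, 3 and 7 in the AA libraries. The groups overlapped, and without a filter AA differed from control by 0.71 on the log2 scale with a standard error of 0.58 (edgeR, adjusted p = 0.482). In order of their mean level, rno-miR-221* ranked 100 of 620 rows in controls and 97 in treated rats, rno-miR-221 ranked 134 and 118, and rno-miR-222 ranked 172 and 156. These 3 kept this order in every library. The remaining rows were at 0.288 ± 0.127 CPM (rno-miR-222*) and 0.297 ± 0.177 CPM (rno-mir-221*) in the control group (SD, n = 4 each) and did not differ from each other by more than their spread.

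**Figure D3:**
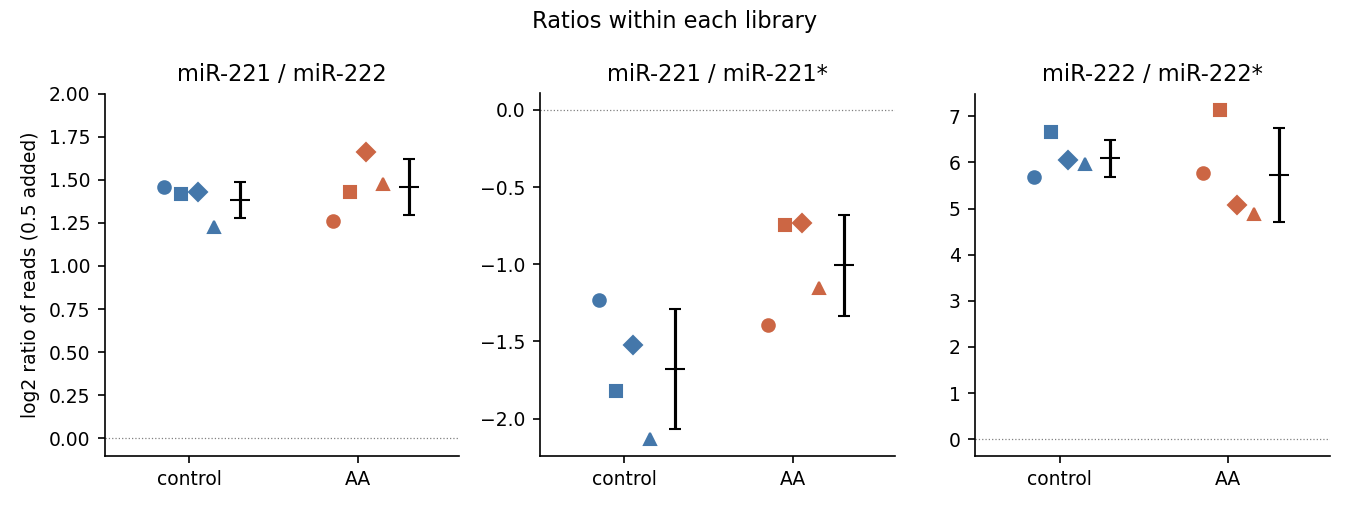
Log2 ratio of reads within each library (vertical axis, 0.5 reads added, own scale in each panel) for miR-221 to miR-222, miR-221 to its opposite arm and miR-222 to its opposite arm, with the mean ± SD in black. The first ratio is between 1.23 and 1.66 in all libraries, the second is below 0 in all of them, and the groups overlap in each panel.

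The rows whose profile over the 8 libraries was most like that of the main arms were ranked by Pearson's r of log2 CPM, as a description over libraries that share the group difference. For rno-miR-221, rno-miR-222 ranked 3 of 366 (r = 0.97), after rno-miR-449a (r = 0.98) and rno-miR-24-2* (r = 0.98) and before rno-miR-132 (r = 0.96). For rno-miR-222 the closest were rno-miR-449a (r = 0.99), rno-miR-132 (r = 0.98), rno-miR-221 and rno-miR-142-3p (r = 0.97). miR-449a carries the seed of the miR-34 family, and miR-142-3p is a miRNA of blood cells. rno-miR-449a was called at a log2 fold change of 3.41, rno-miR-132 at 2.0 and rno-miR-142-3p at 1.47, whereas rno-miR-24-2* was not called (0.53, adjusted p = 0.0762 from edgeR). rno-miR-449a averaged 0.644 CPM in controls and 6.94 CPM in AA rats, so that its control values rest on few reads. The opposite arm rno-miR-221* ranked only 123 for rno-miR-221 (r = 0.43).

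With the group mean taken from every value, so that only differences among rats of a group remain, rno-miR-222 ranked 5 of 366 for rno-miR-221, and rno-miR-221 ranked 6 for rno-miR-222 (r = 0.88). The 3 rows most like rno-miR-221 were then rno-miR-196a (r = 0.93), rno-miR-146a (r = 0.92) and rno-miR-449a (r = 0.92), and those most like rno-miR-222 were rno-miR-449a (r = 0.92), rno-miR-132 (r = 0.91) and rno-miR-190b (r = 0.90). rno-miR-221* had an r of 0.09 with rno-miR-221 on this scale. The r between the main arms of the neighbouring hairpins was thus higher than that between the 2 arms of the miR-221 hairpin.

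The list of other miRNAs often described as growth-promoting was chosen with earlier results of these data known, so its counts are a description only. Of this list, 10 rows were tested. 3 of them were called higher, 0 lower and 7 were not called, where 10.4% of all miRNAs tested were called higher and 5.99% lower. The median log2 fold change was 0.48 against 0.06 over all miRNAs tested. The 3 called were rno-miR-21 (1.99, from 32390 to 128589 mean CPM), rno-miR-18a (1.21) and rno-miR-19b (0.63). rno-miR-18a and rno-miR-19b belong to the miR-17~92 cluster and were named after their values were seen. The other rows of this cluster in the list were not called, namely rno-miR-19a (0.64), rno-miR-20a (0.60), rno-miR-17-5p (0.37) and rno-miR-92a (0.22). rno-miR-93, the most abundant of the list after rno-miR-21, was at 733 ± 103 and 759 ± 130 CPM (SD, n = 4 each). Its log2 fold change was 0.05 (adjusted p = 0.870 from edgeR). The log2 fold changes of rno-miR-221 and rno-miR-222 lay between those of rno-miR-19b and rno-miR-18a.

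By RefSeq name, 81 rows other than those of the pair had hairpins on the X chromosome and on no other chromosome, and 50 of these were tested. edgeR called 5 of them higher and 0 lower, a share of 10% higher that was near the 10.4% over all tested miRNAs. DESeq2 called 8 higher (16%, against 12.0% over all) and 0 lower. At an unadjusted p under 0.05 edgeR had 15 higher (30%, against 18.3% over all) and 0 lower, and the median over the 50 was 0.38 on the log2 scale. The differences between these shares were not tested. The rows called by edgeR were rno-miR-741-3p, rno-miR-224, rno-miR-503, rno-miR-223 and rno-miR-322, with log2 fold changes of 4.66, 3.20, 1.48, 1.02 and 0.90 in this order. rno-miR-741-3p had a mean of 0.278 ± 0.370 CPM in control and 6.89 ± 10.4 in AA rats (SD, n = 4 each), so that its value rests on few reads and a wide spread. The most abundant of these rows, rno-miR-542-3p, was not called (0.95, adjusted p = 0.0611 from edgeR).

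Since miR-221 and miR-222 are expressed in vessels and in blood cells, marker miRNAs of these cells are given beside them. These lists too were chosen with earlier results of these data known, and their counts are a description only. For comparison with the counts below, 10.4% of all 367 miRNAs tested were called higher and 5.99% lower. Of the leukocyte list, 3 of 6 tested rows were called higher (rno-miR-146b, rno-miR-142-3p and rno-miR-223) and 0 lower, with a median log2 fold change of 0.80, and the summed level was 2468 to 3557 CPM in controls against 4259 to 8104 in AA rats. The most abundant rows of this list were rno-miR-142-3p (1.47) and rno-miR-146a, which was not called (-0.09). Nor were rno-miR-150 (0.58) and rno-miR-142-5p (0.30) called, the latter from the same hairpin as rno-miR-142-3p. Of the endothelial list, 0 of 3 rows were called by edgeR, with a median of -0.18, and the summed level was 8118 to 10935 CPM against 6179 to 9456, mostly from rno-miR-126 (-0.18) and rno-miR-126* (-0.58). Of the smooth muscle list, 0 of 7 rows were called by edgeR, with a median of -0.22 and sums of 177134 to 237439 CPM against 142620 to 183924, where rno-miR-143 (-0.36) and rno-miR-145 (0.27) were the most abundant. The red blood cell list was also without a call in its 2 rows, rno-miR-451 (-0.72) and rno-miR-144 (-0.49), at a median of -0.61 and sums of 499 to 798 CPM against 158 to 564. Of the renal epithelium list, rno-miR-194 and rno-miR-204 were called lower (-0.73 and -0.80), 0 were called higher and 5 were not called, with a median of -0.34. Its most abundant rows, rno-miR-30a (-0.17) and rno-miR-192 (-0.79), were among those not called. In the endothelial, smooth muscle and red blood cell lists, 0 rows also had an unadjusted p under 0.05 by edgeR or were called by DESeq2. The opposite directions that edgeR left without a call in the growth-promoting, leukocyte and renal epithelium lists also had 0 rows by either count. Among the lists of cell markers, rows called higher were thus found in the leukocyte list only, in 3 of its 6 tested rows. The part of any cell type in the rise of miR-221 and miR-222 was not tested.

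**Figure D4:**
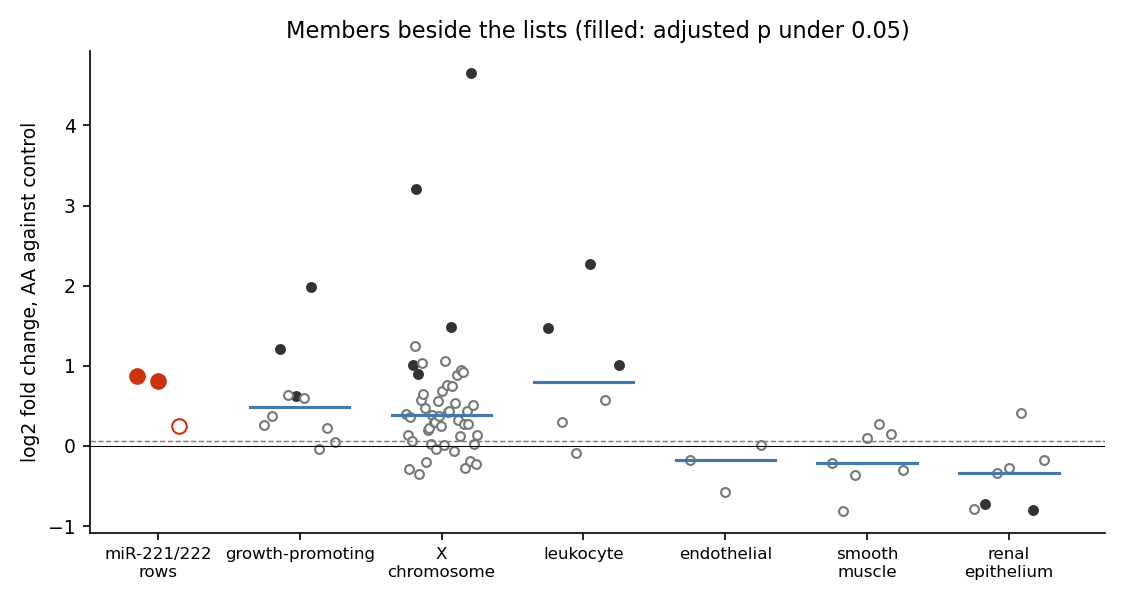
Log2 fold change of AA against control (vertical axis) for the 3 tested rows of the pair in red and for the tested rows of each list, with filled points for an adjusted p-value under 0.05, a blue line at each list's median and a dashed line at the median of all 367 miRNAs. The medians are 0.48 for the growth-promoting list, 0.38 for the X chromosome and 0.80 for the leukocyte list, and they are below 0 for the endothelial, smooth muscle and renal epithelium lists.

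How firmly these calls stand can be read from the fits under other settings. rno-miR-221 and rno-miR-222 were higher in the AA group in each of 17 alternative fits, and every 95% interval of these fits was above 0, also where the adjusted p missed the threshold.

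**Figure D5:**
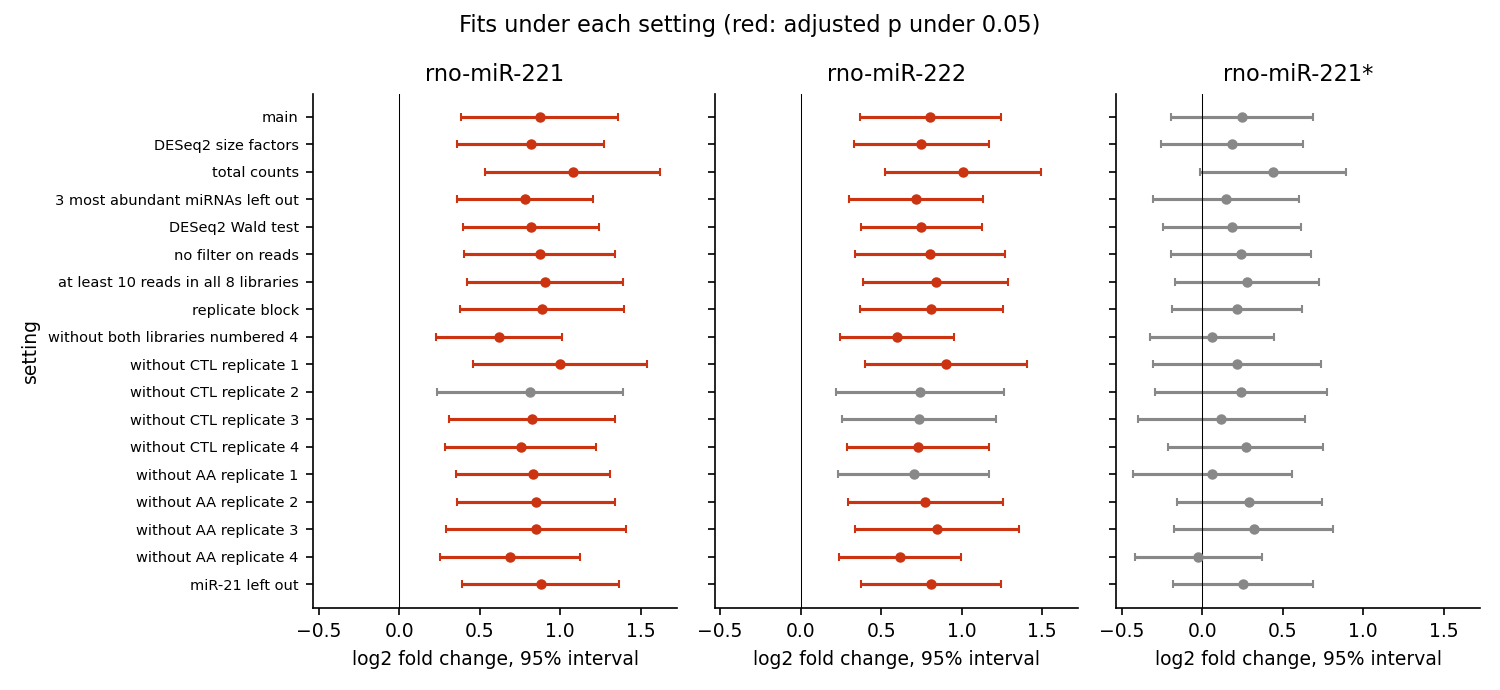
Log2 fold change of AA against control with its 95% interval (horizontal axis) for rno-miR-221, rno-miR-222 and rno-miR-221* in the reported fit and 17 alternatives (vertical axis), in red where the adjusted p-value was under 0.05. rno-miR-221 is red in 16 alternatives and rno-miR-222 in 14, while rno-miR-221* is grey in all of them with intervals that span 0.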

How the data were processed

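Small RNA libraries of 8 kidneys were read on the Illumina Genome Analyzer II platform. The values that the authors deposited are raw counts, 1 whole number for each known rat miRNA in each library. The paper describes mapping with Bowtie in miRanalyzer to miRBase version 17, and the submitters' processing notes name Bowtie and DESeq, with versions not given in the sources used here. Groups and library numbers were taken from the titles, each of which matches 1 column.

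Counts were compared with edgeR 4.0.16 in R 4.3.3 (TMM, glmQLFit and glmQLFTest, two-sided, Benjamini-Hochberg adjustment over 367 miRNAs, threshold 0.05), for rows that reached 10 reads in 4 or more of 8 libraries. The standard error is the log2 fold change divided by the square root of F. On simulated counts of the AA against control comparison for 367 miRNAs, with 200 changed by a log2 fold change of 2, the step recovered 99% with 8 false calls, and it made 0 calls with none changed. Recovery of changes as small as those of rno-miR-221 and rno-miR-222 was not simulated. Ratios and shares were compared by exact permutation (scipy 1.17.1). Wilson intervals cover counting error only, since PCR copies are not independent molecules. For likeness, log2 CPM used a prior count of 2. Libraries of a group differed by a chi-square of at least 393.9 per degree of freedom, so that none was a copy of another. The labels do not number the animals, and p-values measure the spread between these samples.

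The miRNAs named are the rows matched by the rule, the 3 rows most like each main arm, and, of each list, up to 2 of the most abundant rows and the called ones. In the growth-promoting and leukocyte lists, further rows that were not called are also named. Members and lists were chosen with earlier results of these data known. Of the lists, rno-miR-155 and rno-miR-486 had no row. RefSeq hairpin names matched 617 of 620 rows. The alternatives were other scalings, DESeq2 1.42.0, other filters, the library number as a block, and libraries left out.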

Additional observations from a re-analysis of the deposited data

How the results depend on the processing

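Over 17 alternative fits, rno-miR-221 was called in 16 and rno-miR-222 in 14, with log2 fold changes of 0.62 to 1.08 and 0.60 to 1.01, and adjusted p-values of 0.00135 to 0.0727 and 0.000929 to 0.0727. The calls were lost without the second control library (log2 fold changes of 0.81 and 0.74) and, for rno-miR-222, without the third control library (0.74) and the first AA library (0.70). The range with 1 library left out was 0.69 to 1.00 for rno-miR-221, 0.62 to 0.90 for rno-miR-222 and -0.02 to 0.32 for rno-miR-221*, which was called in 0 of 17 fits (unadjusted p = 0.240 in the reported fit) and changed sign without the AA library 4, where it was -0.024. The cause was not tested. The number of miRNAs called was 60, and 35 to 51 with 1 library left out, with 35 when control 2 and 37 when control 1 was left out, in fits of 7 libraries. Under total counts, 54 were higher and 14 lower, against 38 and 22, and the share of calls that were higher went from 63.3% to 79.4%. It was 51.9% without both libraries numbered 4. That fit also gave the lowest log2 fold changes of the alternatives for rno-miR-221 (0.62) and rno-miR-222 (0.60). Both were still called there (edgeR, adjusted p = 0.0465 and 0.0385).

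The library numbers were not taken as pairs, since same-numbered libraries deviated together at r = 0.05, 0.20, 0.14 and 0.35 across miRNAs. With the number as a replicate block, 78 miRNAs were called, and rno-miR-221 (0.89) and rno-miR-222 (0.81) kept their calls, while rno-miR-221* (0.22) was not called. The ratios and the summed share kept their direction in every setting and were not called in any after adjustment. Their exact permutation tests cannot fall below p = 0.0571 with 1 library left out, 0.100 with 3 against 3 rats, or 0.125 with sign flips in the block, and say nothing of stability there. With all 8 libraries, the smallest possible p of these permutation tests was 0.0286. The summed share alone reached it and had 0.114 after adjustment over the 4 tests, so that a lone result at this floor could not be called. 1 alternative was chosen after the data were seen for the fits (miR-21 left out) and 1 for the summed share (all 5 rows). The main arms had 217 to 2022 reads a library and the low rows 1 to 24, so that counting error is wider in the low rows.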

Other observations

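The excess of rno-miR-221* over rno-miR-221 was set beside the other hairpins after these values were seen. Among the 92 pairs of rows with the same name without and with an asterisk that were both tested, the row with the asterisk was the higher one in all 8 libraries in 9, miR-221 among them. The rise of the main arm relative to the opposite arm by 0.67 on the log2 scale in miR-221 ranked 7 of the 92 pairs, whose median was 0.00. An unadjusted p under 0.05 was reached by 13.0% of the pairs (exact permutation test, two-sided) and not by miR-221.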
